A study of Homo sapiens with 14 samples.

Results

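The knockdown of YAP and TAZ was done with 2 separate siRNA mixes in this RNA sequencing series, and the difference between mix 1 and mix 2 is described here across genes. The members are 6 of the 14 libraries: 2 of YAP/TAZ siRNA mix 1, 2 of YAP/TAZ siRNA mix 2 and 2 of control siRNA, taken by the names of their columns in the deposited expression table. The line was MDA-MB-231 throughout, a human breast cancer line of mesenchymal, triple-negative type, grown with serum. Cells of both YAP/TAZ groups were transfected 48 h before harvest. The labels give no harvest time for control siRNA, and no sequence of any siRNA was at hand. The other 8 libraries, of BRD siRNA mixes A and B (72 h), of the BET inhibitor JQ1 (1 uM, 24 h) and of DMSO, share in the estimate of the spread and give a scale for the size of differences. Whether the 2 libraries of a group come from separate cultures is not stated, and p-values then reflect the spread among these libraries, which may be technical.

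The paralogous proteins YAP (gene YAP1) and TAZ (gene WWTR1) activate transcription and are held in check by Hippo kinases. When those kinases are inactive, they enter the nucleus, bind TEAD factors on DNA and switch on genes such as CTGF, CYR61 and ANKRD1. In MDA-MB-231 cells, which carry a lesion in the upstream Hippo regulator NF2, they are known to be active and to drive cell cycle genes. An siRNA is a short duplex whose guide strand directs Argonaute proteins to a matching transcript. A guide strand can also lower other transcripts whose 3' UTRs match only its seed, the stretch near its 5' end, and a pair of mixes against the same targets is a usual control for that.

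The 6 libraries held 15741695 to 23049093 reads in genes. Values are scaled RPM, the reads of a gene divided by the authors' own effective library size. VIM was at 2980 to 4120 scaled RPM and EGFR at 143 to 182 scaled RPM over the 6 libraries, while the luminal factor GATA3 was at 1.15 to 2.08 scaled RPM. High VIM and EGFR and low GATA3 go with the mesenchymal type of the line. ERBB2, also checked, was at 46.5 to 60.1 scaled RPM. Some luminal markers such as KRT19, given below, were not low, so these few levels do not show that all luminal genes were silent. A log2 difference is on the log2(scaled RPM + 1) scale, where changes of low genes come out too small, and a gene was called at a limma adjusted p under 0.05. Comparisons of the mixes with control siRNA share the same 2 control libraries, so their values are only given side by side.

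Both mixes lowered their targets, yet the cells that received them differed widely in the rest of the transcriptome. Of 13674 tested genes, 8981 differed between mix 1 and mix 2, which is 65.7% (30.9% higher and 34.8% lower with mix 1). Counts of list members between the mixes are to be read beside these shares. At least 2-fold differences were called for 1283 genes, 9.38% of those tested, with 710 higher (5.19%) and 573 lower (4.19%) with mix 1. The split depends on the setting, with 534 higher and 307 lower at a pseudocount of 4 and 902 higher and 896 lower with edgeR. The median absolute log2 difference between the mixes was 0.33, against 0.0781 between the 2 libraries of mix 1 and 0.0817 between those of mix 2. The median difference between the mixes was thus larger than the median spread between libraries of a mix.

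Against control siRNA, 10158 genes were called with mix 1 (74.3%) and 10715 with mix 2 (78.4%), with at least 2-fold changes in 2366 (17.3%, 8.91% higher and 8.40% lower) and 3230 (23.6%, with 12.6% of all genes higher). In single directions, 40.6% of genes were higher and 33.6% lower with mix 1, and 42.7% higher and 35.7% lower with mix 2. Counts of list members against control siRNA are to be read beside these shares. The median absolute log2 change was 0.446 with mix 1 and 0.519 with mix 2. The pair of BRD siRNA mixes in the same series gives a scale: 6843 genes (50.0%, 25.7% higher and 24.3% lower) were called between mix A and mix B, 482 of them (3.52%, 1.95% higher and 1.57% lower) at least 2-fold, with a median absolute log2 difference of 0.223. Across the 13674 genes, the difference between the YAP/TAZ mixes had a Pearson r of 0.06 with that between the BRD mixes and of -0.14 with JQ1 minus DMSO, none of which share a library with it.

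**Figure D1:**
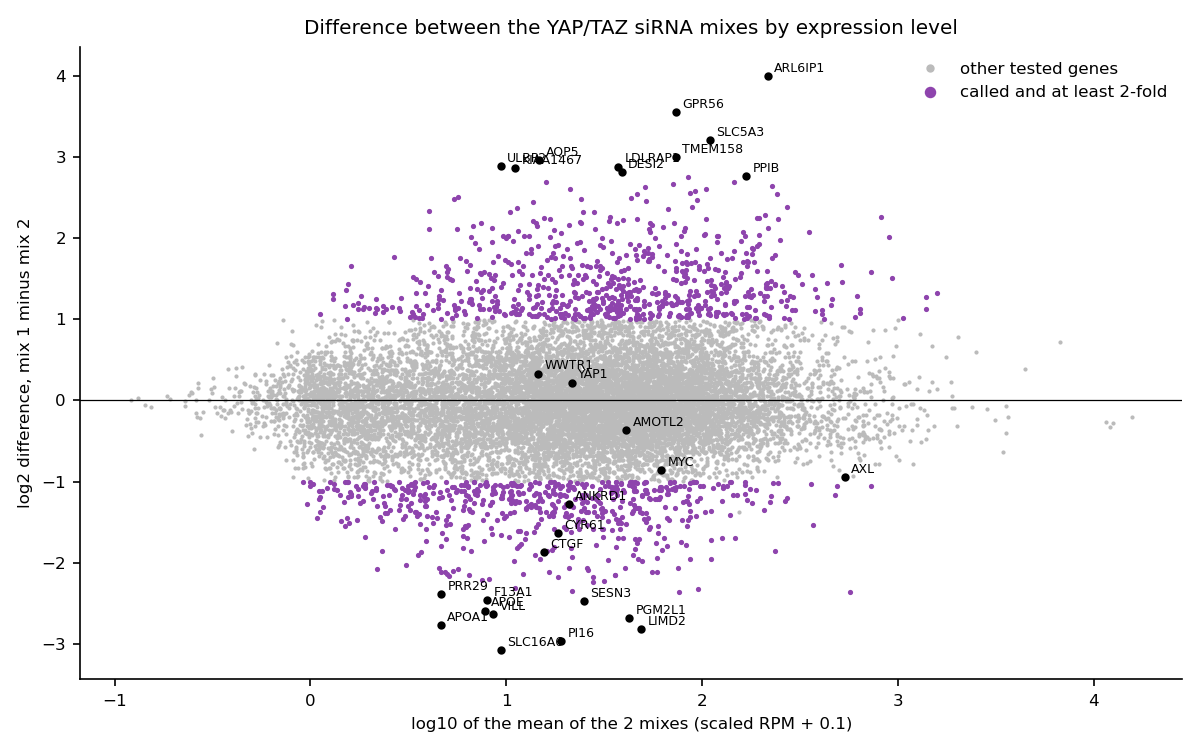
Each point is 1 of 13674 tested genes. The horizontal axis is the log10 of the mean level of both mixes (scaled RPM + 0.1), the vertical axis the log2 difference of mix 1 minus mix 2, purple points were called at least 2-fold, and black points with names are the targeted genes, 6 target genes and the 10 largest differences each way. The targeted genes YAP1 and WWTR1 sit near 0, CTGF and CYR61 lie below it, and ARL6IP1 is at the top.

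The targeted transcripts were low with both mixes. YAP1 was at 24.2 and 22.4 scaled RPM with mix 1 and at 21.3 and 18.6 scaled RPM with mix 2, against 190 and 174 scaled RPM with control siRNA. WWTR1 was at 15.3 and 17.2 scaled RPM with mix 1 and at 12.8 and 12.7 scaled RPM with mix 2, against 135 and 126 scaled RPM with control siRNA. All 4 knockdown libraries lay far below both controls, and for both genes the mix 2 libraries were lower than the mix 1 libraries. YAP1 fell 7.80-fold with mix 1 and 9.12-fold with mix 2, and WWTR1 fell 8.05-fold with mix 1 and 10.3-fold with mix 2. Between the mixes, the log2 difference was 0.22 for YAP1 (SE 0.067, limma adjusted p = 0.00748) and 0.33 for WWTR1 (SE 0.064, limma adjusted p = 0.000162). The YAP1 difference missed the threshold when mix 1 replicate 1 (0.16, limma adjusted p = 0.0968) or mix 2 replicate 2 (0.13, limma adjusted p = 0.162) was left out.

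The best known YAP/TAZ target genes ran the other way and were lower with mix 1. CTGF, a secreted matricellular protein, was at 5.54 and 6.69 scaled RPM with mix 1 and at 24.2 and 25.6 scaled RPM with mix 2, against 201 and 184 scaled RPM with control siRNA. CYR61, of the same protein family, was at 8.42 and 8.56 scaled RPM with mix 1 and at 28.7 and 27.9 scaled RPM with mix 2, against 229 and 213 scaled RPM with control siRNA. The 3 groups did not overlap for either gene, with mix 1 lowest and the controls highest. CTGF was 4.07-fold lower with mix 1 than with mix 2 (log2 difference -1.87, SE 0.07, limma adjusted p = 3.38e-15), and CYR61 3.33-fold lower (-1.63, SE 0.053, limma adjusted p = 4.52e-16). Against control siRNA, CTGF fell 31.5-fold with mix 1 and 7.74-fold with mix 2.

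The same order held for other readouts. ANKRD1, a nuclear ankyrin repeat protein, was at 11.1 and 12.3 scaled RPM with mix 1 and at 28.9 and 30.7 scaled RPM with mix 2, against 441 and 403 scaled RPM with control siRNA (log2 difference of mix 1 minus mix 2 -1.28). The receptor tyrosine kinase AXL was at 353 and 378 scaled RPM with mix 1 and at 673 and 738 scaled RPM with mix 2, against 1470 and 1431 scaled RPM with control siRNA (-0.95). AXL fell with both mixes and further with mix 1. MYC, which encodes a growth-promoting transcription factor, was at 44.7 and 42.6 scaled RPM with mix 1 and at 79 and 81.5 scaled RPM with mix 2, against 98.3 and 97.7 scaled RPM with control siRNA (-0.86). AMOTL2, an angiomotin that binds YAP and is also its target, showed the smallest gap of these, -0.37, with 35.2 and 36.2 scaled RPM with mix 1 and 45.4 and 47.4 scaled RPM with mix 2, against 163 and 167 scaled RPM with control siRNA.

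**Figure D2:**
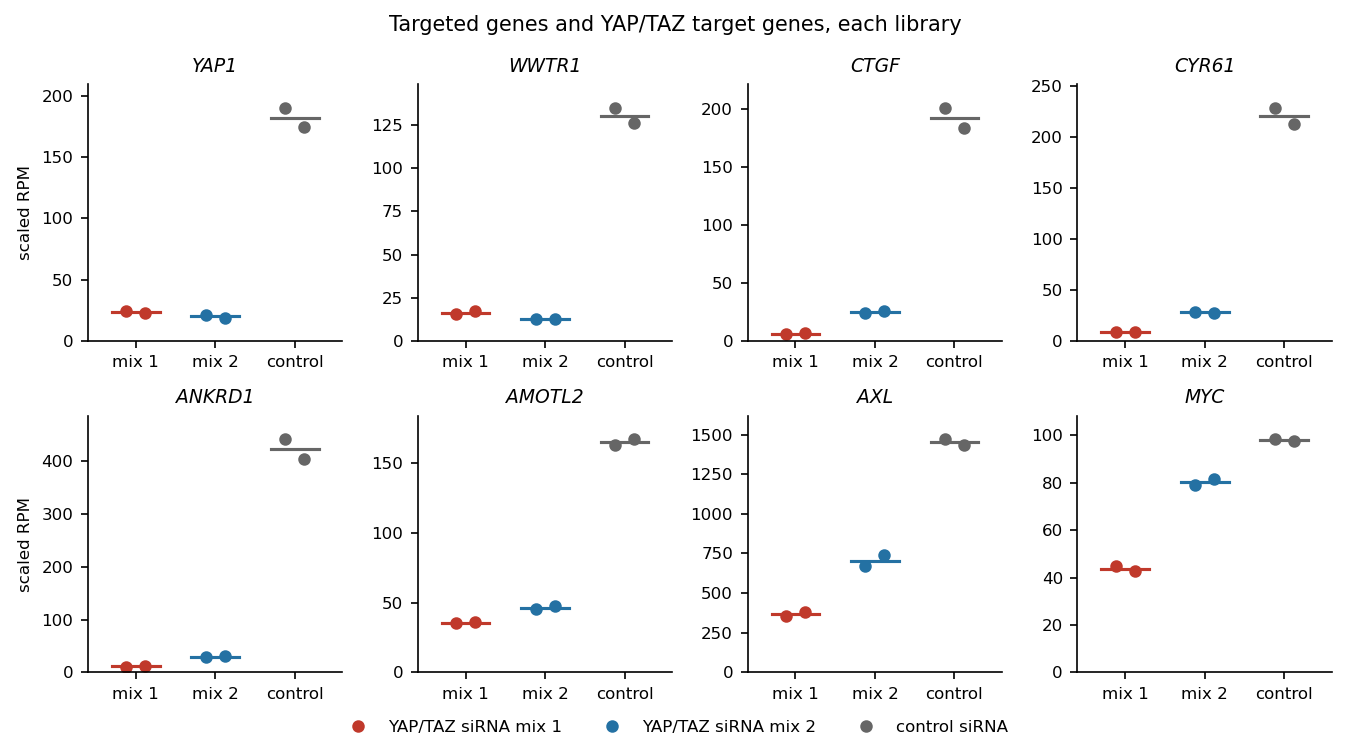
Level in scaled RPM of the 2 targeted genes and 6 YAP/TAZ target genes in each library (points) with the group mean (line), for mix 1, mix 2 and control siRNA. YAP1 and WWTR1 were slightly higher with mix 1 than with mix 2, whereas all 6 target genes were lower with mix 1.

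The wider list of YAP/TAZ targets was not uniform. Of 27 tested members, 7 were higher with mix 1, 17 were lower and 3 were not called. Their median log2 difference was -0.42, against -0.03 over all tested genes. FJX1 (-1.62), ARHGAP29, a GTPase-activating protein (-1.54), and the vasoconstrictor peptide gene EDN1 (-1.22) were lower with mix 1. ARHGAP29 was at 192 and 184 scaled RPM with mix 1 and at 534 and 562 scaled RPM with mix 2, against 429 and 385 scaled RPM with control siRNA, so it fell with mix 1 and rose with mix 2. RBMS3 also rose with mix 2 against control siRNA (log2 change 0.76). In the other direction, the AP-1 member FOSL1 was higher with mix 1 (1.20), as were CRIM1 (1.00) and LATS2 (0.86). FOSL1 was at 23.1 and 25.4 scaled RPM with mix 1 and at 10.2 and 9.68 scaled RPM with mix 2, against 66 and 80.7 scaled RPM with control siRNA, and so was low with both. TEAD1 (0.02) and AJUBA (0.06) were not called between the mixes.

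The promoter of CTGF is shown because CTGF had the largest gap of the 6 readouts and holds the letters that TEAD factors bind. It is the RefSeq window of 250 bases before to 50 after the gene start (GRCh38.p14, chr6:131951323-131951622, minus strand), and capitals mark each match to CATTCC or its reverse complement.
CTGF promoter: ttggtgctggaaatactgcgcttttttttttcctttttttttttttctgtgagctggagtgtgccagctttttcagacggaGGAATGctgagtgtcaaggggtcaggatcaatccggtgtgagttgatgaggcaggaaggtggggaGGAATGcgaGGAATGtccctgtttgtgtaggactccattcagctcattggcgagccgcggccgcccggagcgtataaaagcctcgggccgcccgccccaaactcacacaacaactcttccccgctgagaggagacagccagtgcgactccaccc
Of 21 listed YAP/TAZ targets with a promoter in the RefSeq table, 12 held CATTCC on either strand (57.1%), against 1625 of 10694 tested genes with a promoter (15.2%). The list was written from textbook knowledge of YAP/TAZ targets, so this share may follow from that choice. A match is a description of letters and not a measured binding site.

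Genes of the Hippo pathway itself also differed. Of 36 tested members, 20 were higher and 9 lower with mix 1, with a median log2 difference of 0.19. That is 80.6% called, against 65.7% of all tested genes. The TEAD co-repressor VGLL4 was at 121 and 120 scaled RPM with mix 1 and at 43.3 and 36.3 scaled RPM with mix 2, against 56.4 and 57.8 scaled RPM with control siRNA (1.58, SE 0.07, limma adjusted p = 5.2e-14). VGLL4 therefore rose with mix 1 and fell with mix 2. WWC3, a KIBRA family scaffold, was at 25 and 28.2 scaled RPM with mix 1 and at 77.8 and 71.5 scaled RPM with mix 2, against 79.5 and 77.9 scaled RPM with control siRNA (-1.46), and so was low with mix 1 alone. Its relative WWC2 showed the reverse, with a log2 difference of 1.00 and a fall called with mix 2 (-1.04) but not with mix 1 (-0.04, limma adjusted p = 0.63). The kinase genes LATS1 (0.74) and LATS2 (0.86) and the kinase adaptor MOB1A (0.82) were higher with mix 1. TEAD4, one of the DNA-binding partners, was lower with mix 1 (-0.95), and FRMD6 (-0.93) was too.

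Most proliferation genes fell with both mixes, with lower medians with mix 2. All 49 tested genes of mitosis and the kinetochore were called lower with each mix against control siRNA, with median log2 changes of -1.52 with mix 1 and -2.19 with mix 2. Between the mixes, 41 of the 49 were higher with mix 1 and 3 lower, with a median difference of 0.64. PLK1, a mitotic kinase, was at 41.3 and 47.1 scaled RPM with mix 1 and at 12.7 and 14 scaled RPM with mix 2, against 91.5 and 91 scaled RPM with control siRNA (1.65, limma adjusted p = 1.01e-12). KIF23, a kinesin of cytokinesis, was at 39.5 and 44.1 scaled RPM with mix 1 and at 16.1 and 15.9 scaled RPM with mix 2, against 243 and 229 scaled RPM with control siRNA (1.33). For both genes the 3 groups were apart, with mix 2 lowest.

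DNA replication genes were called lower than control siRNA for 51 of 51 members with mix 1 (median -1.72) and 49 of 51 with mix 2 (median -2.03), and between the mixes 30 were higher with mix 1 and 8 lower. CDC6, which loads the replicative helicase, was at 33.4 and 32.5 scaled RPM with mix 1 and at 9 and 9.22 scaled RPM with mix 2, against 202 and 185 scaled RPM with control siRNA (1.75). Among genes of the G1/S step, 21 of 28 were higher and 4 lower with mix 1. CDC25A, the phosphatase that activates cyclin-dependent kinases, was at 12.7 and 15.9 scaled RPM with mix 1 and at 2.08 and 2.94 scaled RPM with mix 2, against 127 and 123 scaled RPM with control siRNA (2.12, SE 0.11, limma adjusted p = 9.25e-13). The atypical repressor E2F7 was at 283 and 279 scaled RPM with mix 1 and at 82.9 and 77.6 scaled RPM with mix 2, against 188 and 183 scaled RPM with control siRNA (1.8). E2F7 rose with mix 1 while most of its list fell.

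The cell cycle brakes differed in both directions. CDKN1A, the p21 inhibitor, was at 196 and 200 scaled RPM with mix 1 and at 64.8 and 66 scaled RPM with mix 2, against 46.7 and 55.6 scaled RPM with control siRNA (1.58). The retinoblastoma gene RB1 was at 31.2 and 28.2 scaled RPM with mix 1 and at 83.8 and 93.5 scaled RPM with mix 2, against 141 and 123 scaled RPM with control siRNA (-1.55). Mix 1 libraries thus had the highest p21 transcript and the lowest RB1 transcript. MDM2, which encodes the ligase of p53, was higher with mix 1 (1.59), with a fall called with mix 2 (-1.53) and no call with mix 1 (0.05, limma adjusted p = 0.515). The p53 target list had 8 members higher and 12 lower of 26, where 30.9% of all tested genes were higher and 34.8% lower. Replication-dependent histone genes, 37 of which were tested, had 29 members higher and 1 lower with mix 1 (median 0.45); their copies are near-identical, so reads may be split between them and single histone values are uncertain.

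Cholesterol synthesis genes were mostly higher with mix 1. Of 26 tested members, 21 were higher with mix 1 and 3 lower, with a median log2 difference of 0.96, the largest of the 33 lists. Against control siRNA, 23 were higher with mix 1 (median 0.97), whereas 9 were higher and 10 lower with mix 2 (median -0.02). With mix 2 that is 73.1% called, near the 78.4% of all tested genes, where 42.7% were higher and 35.7% lower. HMGCS1, an early enzyme of the pathway, was at 315 and 302 scaled RPM with mix 1 and at 83.7 and 77 scaled RPM with mix 2, against 68 and 71.6 scaled RPM with control siRNA (1.93, SE 0.067, limma adjusted p = 1.05e-15). The mix 1 libraries stood alone above the other groups.

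MSMO1, a later enzyme, was at 336 and 298 scaled RPM with mix 1 and at 66.7 and 64.4 scaled RPM with mix 2, against 114 and 108 scaled RPM with control siRNA (2.25), so it rose with mix 1 and fell with mix 2. DHCR7 (1.70), SQLE (1.66) and STARD4, a cholesterol carrier (1.60), had the same pattern. GGPS1 (-0.33), TM7SF2 (-0.33) and PMVK (-0.57) were the members lower with mix 1. INSIG1, which holds the sterol sensor in the endoplasmic reticulum, was not called (-0.07, limma adjusted p = 0.331).

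Fatty acid genes leaned the same way, with 17 of 22 tested members higher and 2 lower with mix 1 (median 0.44). The desaturase SCD was at 2328 and 2220 scaled RPM with mix 1 and at 921 and 903 scaled RPM with mix 2, against 569 and 555 scaled RPM with control siRNA (1.32). FADS1, another desaturase, was at 367 and 367 scaled RPM with mix 1 and at 109 and 103 scaled RPM with mix 2, against 338 and 319 scaled RPM with control siRNA (1.79). SCD was higher than control with both mixes, while FADS1 was low with mix 2. SREBF2 encodes the transcription factor of cholesterol genes, and it was itself at 119 and 120 scaled RPM with mix 1 and at 60.3 and 68.2 scaled RPM with mix 2, against 54.5 and 57.6 scaled RPM with control siRNA (0.89). Its promoter is shown because it was the single one of 19 cholesterol promoters in the RefSeq table that held the sterol regulatory element on either strand, spelled by the capitals (5.26%, against 0.0561% of tested genes). The window is given with its place (GRCh38.p14, chr22:41832855-41833154, plus strand).
SREBF2 promoter: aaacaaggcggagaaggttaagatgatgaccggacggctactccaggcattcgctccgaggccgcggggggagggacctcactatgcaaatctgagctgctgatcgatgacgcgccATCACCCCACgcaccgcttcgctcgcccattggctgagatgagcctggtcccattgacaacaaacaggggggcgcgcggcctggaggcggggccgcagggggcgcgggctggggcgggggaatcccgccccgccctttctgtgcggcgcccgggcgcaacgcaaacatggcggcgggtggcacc
The lack of these letters in the other windows says nothing of the factor.

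**Figure D3:**
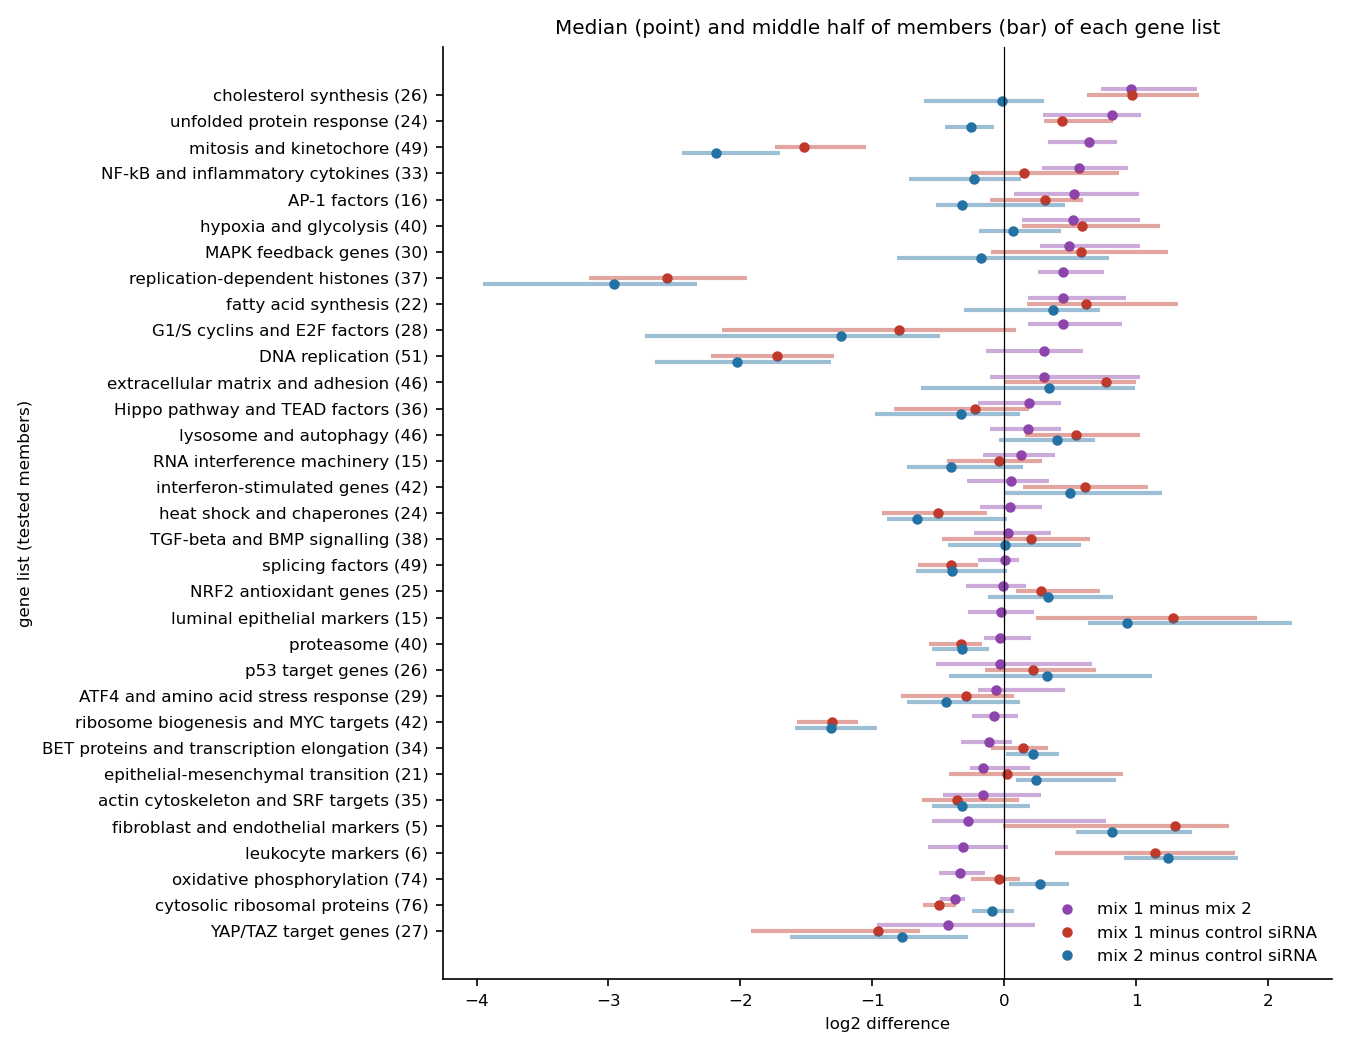
Median log2 difference (point) and interquartile range of the members (bar) for 33 gene lists, for mix 1 minus mix 2, mix 1 minus control siRNA and mix 2 minus control siRNA, with the number of tested members in brackets. Cholesterol synthesis (median 0.96 for mix 1 minus mix 2) is at the top and YAP/TAZ target genes (-0.42) are at the bottom, and mitosis and histone genes lie far below 0 with both mixes.

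In the NF-kB list of inflammatory genes, 25 of 33 tested members were higher and 3 lower with mix 1 (median 0.57), and medians against control siRNA were 0.15 with mix 1 and -0.23 with mix 2. BIRC3, an inhibitor of apoptosis, was at 48.6 and 44.9 scaled RPM with mix 1 and at 9.94 and 10.2 scaled RPM with mix 2, against 62.7 and 62.8 scaled RPM with control siRNA (2.11, SE 0.084, limma adjusted p = 8.4e-15). The NF-kB subunit gene NFKB1 was at 27.7 and 29.6 scaled RPM with mix 1 and at 9.73 and 8.81 scaled RPM with mix 2, against 42.2 and 38.2 scaled RPM with control siRNA (1.53). Both genes were lowest with mix 2. The adhesion receptor ICAM1 was at 165 and 159 scaled RPM with mix 1 and at 49.3 and 50.6 scaled RPM with mix 2, against 21.4 and 24.1 scaled RPM with control siRNA (1.68), and so was higher than control with each mix.

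The inhibitor NFKBIA was at 98.1 and 104 scaled RPM with mix 1 and at 51.8 and 46 scaled RPM with mix 2, against 50.3 and 59.5 scaled RPM with control siRNA (1.04). The cytokine gene IL1B reached 4.61 and 4.43 scaled RPM with mix 1, against 0.552 and 0.688 scaled RPM with mix 2 and 0.48 and 0.482 scaled RPM with control siRNA (1.77). IL6, in contrast, was lower with mix 1 (-0.76), and IL11 was not called between the mixes (0.05, limma adjusted p = 0.54) although it fell by 2.07 with mix 1 and by 2.11 with mix 2 on the log2 scale against control siRNA. The promoter of NFKBIA is shown for its match to the NF-kB motif, in capitals (GRCh38.p14, chr14:35404700-35404999, minus strand).
NFKBIA promoter: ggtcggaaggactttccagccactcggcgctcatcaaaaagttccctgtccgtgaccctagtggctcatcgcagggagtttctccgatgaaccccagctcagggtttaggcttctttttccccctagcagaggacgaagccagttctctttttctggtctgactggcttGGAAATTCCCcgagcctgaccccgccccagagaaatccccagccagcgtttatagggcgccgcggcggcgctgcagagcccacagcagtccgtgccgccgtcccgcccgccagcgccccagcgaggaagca
Of 27 members of the list with a promoter in the table, 11 held this motif on either strand (40.7%), against 81 of 10694 tested genes (0.757%). The list was written from textbook knowledge of NF-kB genes, so this share may follow from that choice. It describes letters and says nothing of the difference between the mixes.

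Genes that follow MAP kinase activity gave 24 of 30 higher and 3 lower with mix 1 (median 0.49), and AP-1 factors 10 of 16 higher and 3 lower (median 0.53). That is 90.0% and 81.2% called, against 65.7% of all tested genes. SPRED1, an inhibitor of RAS signalling, was at 355 and 341 scaled RPM with mix 1 and at 69.5 and 70.6 scaled RPM with mix 2, against 125 and 111 scaled RPM with control siRNA (2.29, SE 0.058, limma adjusted p = 9.5e-18). EREG, an EGF receptor ligand, was at 198 and 190 scaled RPM with mix 1 and at 45.5 and 49.1 scaled RPM with mix 2, against 63.8 and 53.4 scaled RPM with control siRNA (2.02). Both rose with mix 1 and fell with mix 2. The AP-1 gene JUNB was higher with mix 1 (1.31), as was FOSL2 (1.30).

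The unfolded protein response list, which covers chaperones and sensors of the endoplasmic reticulum, had 19 of 24 members higher and 2 lower with mix 1, with a median log2 difference of 0.81. Against control siRNA, 19 were higher with mix 1 and 15 lower with mix 2. The chaperone HYOU1 was at 441 and 473 scaled RPM with mix 1 and at 82.6 and 91.5 scaled RPM with mix 2, against 283 and 281 scaled RPM with control siRNA (2.38, SE 0.06, limma adjusted p = 9.5e-18). EIF2AK3, the PERK sensor kinase, was at 51.5 and 47.5 scaled RPM with mix 1 and at 12.4 and 12.8 scaled RPM with mix 2, against 26.2 and 28.1 scaled RPM with control siRNA (1.89). Both genes were above control with mix 1 and below it with mix 2.

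In the hypoxia and glycolysis list, 29 of 40 members were higher and 4 lower with mix 1 (median 0.52). PFKFB4, which makes an activator of glycolysis, was at 86.6 and 89.5 scaled RPM with mix 1 and at 15.2 and 15.2 scaled RPM with mix 2, against 22.8 and 23 scaled RPM with control siRNA (2.46). The glucose transporter SLC2A1 was at 381 and 416 scaled RPM with mix 1 and at 159 and 168 scaled RPM with mix 2, against 474 and 495 scaled RPM with control siRNA (1.28), and fell more with mix 2. The amino acid stress list was split, with 11 of 29 higher and 11 lower (median -0.06). Over all tested genes, 30.9% were higher and 34.8% lower, and single members of this list are given as values only. The lipoprotein receptor gene VLDLR (1.78) and the amino acid transporter genes SLC7A11 (1.35) and SLC7A5 (1.01) were higher with mix 1.

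Genes of protein synthesis and respiration differed in the opposite direction. Of 76 cytosolic ribosomal protein genes, 70 were lower with mix 1, none was higher and 6 were not called, with a median log2 difference of -0.38. With mix 1, 71 were lower than control siRNA (median -0.50), and with mix 2, 29 were lower and 12 higher (median -0.09). With mix 2 that is 53.9% called, against 78.4% of all tested genes, where 35.7% were lower and 42.7% higher. RPL37 stood apart at 185 and 183 scaled RPM with mix 1 and at 939 and 963 scaled RPM with mix 2, against 721 and 814 scaled RPM with control siRNA (-2.36, limma adjusted p = 7.06e-17). RPS20 was also lower with mix 1 (-1.24). Ribosomal protein genes have many processed pseudogene copies, so how the authors' counting split their reads is uncertain.

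Of 74 oxidative phosphorylation genes, 4 were higher and 51 lower with mix 1 (median -0.34), with medians against control siRNA of -0.04 with mix 1 and 0.27 with mix 2. NDUFB5, a subunit of complex I, was at 26.1 and 22.6 scaled RPM with mix 1 and at 127 and 131 scaled RPM with mix 2, against 89 and 82.8 scaled RPM with control siRNA (-2.36). SDHC, of complex II, was lower with mix 1 too (-1.02). NDUFS1 went the other way (0.72), with 144 and 140 scaled RPM with mix 1 and 85.7 and 86.2 scaled RPM with mix 2, against 190 and 179 scaled RPM with control siRNA. Ribosome biogenesis and MYC target genes, by contrast, fell alike in number: 42 of 42 were lower with each mix, with a median of -1.31 in both, and 10 were higher and 16 lower between the mixes (median -0.08). That is 61.9% called between the mixes, near the 65.7% of all tested genes.

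Interferon-stimulated genes, which double-stranded RNA can induce, were more often higher than lower against control siRNA. Of 42 tested members, 31 were higher, 7 lower and 4 not called with mix 1 (median 0.61), where 40.6% of all tested genes were higher. With mix 2, 27 were higher, 7 lower and 8 not called (median 0.50), where 42.7% of all tested genes were higher. Between the mixes 12 were higher, 11 lower and 19 not called, with a median of 0.05. IFIT5 (1.26) was higher with mix 1, and UBE2L6 (-1.71), an ISG15-conjugating enzyme, was at 20.4 and 21 scaled RPM with mix 1 and at 70.4 and 69.9 scaled RPM with mix 2, against 31.2 and 35.3 scaled RPM with control siRNA.

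Among 15 genes of the RNA interference machinery, 7 were higher and 3 lower with mix 1 (median 0.13). That is 66.7% called, near the 65.7% of all tested genes, and single members are given as values only. DICER1, the enzyme that cuts microRNA precursors, was at 233 and 221 scaled RPM with mix 1 and at 63.7 and 62.1 scaled RPM with mix 2, against 294 and 278 scaled RPM with control siRNA (1.84, SE 0.058, limma adjusted p = 2.17e-16). AGO2, the Argonaute that cleaves transcripts, was at 95.1 and 98.3 scaled RPM with mix 1 and at 31.2 and 31.5 scaled RPM with mix 2, against 71.7 and 69.7 scaled RPM with control siRNA (1.60). Both were lowest with mix 2. AGO2 rose with mix 1 (0.45).

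Of 46 extracellular matrix and adhesion genes, 26 were higher and 10 lower with mix 1 (median 0.30). That is 78.3% called, against 65.7% of all tested genes. The integrin subunit gene ITGAV was at 107 and 101 scaled RPM with mix 1 and at 23.3 and 22.4 scaled RPM with mix 2, against 178 and 175 scaled RPM with control siRNA (2.14, SE 0.056, limma adjusted p = 1.33e-17). ITGA6 was at 1422 and 1353 scaled RPM with mix 1 and at 480 and 491 scaled RPM with mix 2, against 768 and 737 scaled RPM with control siRNA (1.51). ITGAV was low with mix 2 in particular, while ITGA6 was above control with mix 1. In the TGF-beta and BMP list, 15 of 38 were higher and 12 lower (71.1% called, near the share of all tested genes), among them follistatin (FST, -2.18), the BMP-responsive gene ID3 (-1.62) and the receptor TGFBR2 (1.17).

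The summed levels of markers of other cell types were above control with both mixes, but not each marker was called. Against control siRNA, 11 of 15 luminal markers were higher and 1 lower with mix 1, and 13 were higher and none lower with mix 2. Over all tested genes, 40.6% were higher with mix 1 and 42.7% with mix 2. Of 6 leukocyte markers, 4 were higher with mix 1 and 5 with mix 2, and of 5 fibroblast and endothelial markers, 3 were higher with mix 1 and 5 with mix 2, with none lower. The summed level of 15 luminal epithelial markers was 2530 and 2658 scaled RPM with mix 1 and 2615 and 2656 scaled RPM with mix 2, against 1369 and 1440 scaled RPM with control siRNA. Between the mixes, 4 of these markers were higher with mix 1 and 6 lower, 66.7% called and near the 65.7% of all tested genes. ESR1, PGR and CDH1 were not among the 13734 genes for which the authors gave values. KRT19 was at 863 and 936 scaled RPM with mix 1 and at 690 and 712 scaled RPM with mix 2, against 264 and 282 scaled RPM with control siRNA. The sum of 6 leukocyte markers was 138.1 and 141.8 scaled RPM with mix 1 and 184.6 and 207.4 scaled RPM with mix 2, against 71.35 and 73.98 scaled RPM with control siRNA, and consisted mainly of the lysosomal gene CD68. The other 8 listed leukocyte genes were not among those 13734 genes either. The sum of 5 fibroblast and endothelial markers was 46.41 and 48.94 scaled RPM with mix 1 and 41.45 and 42.86 scaled RPM with mix 2, against 14.71 and 18.9 scaled RPM with control siRNA. Only these 5 of the 14 listed fibroblast and endothelial markers had values. The counts and sums say nothing of listed markers without values. All libraries are of a single cell line, so these sums are not read as numbers of other cell types. In bulk RNA, more cells with a transcript and more of it per cell cannot be told apart. The part of these markers in the other differences was not tested.

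The largest single differences were far beyond the medians of the lists, while the most changed list members came near the smaller of them. ARL6IP1, a protein of the endoplasmic reticulum membrane, was at 400 and 416 scaled RPM with mix 1 and at 23.4 and 25.8 scaled RPM with mix 2, against 503 and 474 scaled RPM with control siRNA. It was 16.6-fold higher with mix 1 than with mix 2 (log2 difference 4.00, SE 0.073, limma adjusted p = 2.72e-19) and fell 19.8-fold with mix 2, more than either targeted gene. PPIB, a peptidyl-prolyl isomerase of the endoplasmic reticulum, was at 293 and 296 scaled RPM with mix 1 and at 42.2 and 43.3 scaled RPM with mix 2, against 178 and 191 scaled RPM with control siRNA (2.76). ULBP2, a ligand of the NKG2D receptor of natural killer cells, was at 17 and 17.4 scaled RPM with mix 1 and at 1.32 and 1.61 scaled RPM with mix 2, against 19 and 20.8 scaled RPM with control siRNA (2.89). All 3 fell with mix 2, while PPIB rose with mix 1 (0.67) and ULBP2 was not called with mix 1 (-0.20, limma adjusted p = 0.0726). The water channel AQP5 was instead high with mix 1, at 25.9 and 27.6 scaled RPM, with 2.38 and 2.75 scaled RPM with mix 2 and 0.426 and 0.542 scaled RPM with control siRNA (2.96).

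At the other end, the 10 genes with the largest differences all rose with mix 2 against control siRNA. SLC16A6, a monocarboxylate transporter family member, was at 1.25 and 1.11 scaled RPM with mix 1 and at 17.6 and 17.1 scaled RPM with mix 2, against 1.28 and 0.602 scaled RPM with control siRNA (-3.08, SE 0.14, limma adjusted p = 1.12e-13). PI16 was at 2.87 and 4.3 scaled RPM with mix 1 and at 33 and 35.9 scaled RPM with mix 2, against 2.45 and 3.01 scaled RPM with control siRNA (-2.97). The apolipoprotein genes APOA1 (-2.77) and APOE (-2.59) were also higher with mix 2, with APOE at 1.17 and 1.83 scaled RPM with mix 1 and at 14.7 and 13.2 scaled RPM with mix 2, against 0.426 and 0.361 scaled RPM with control siRNA. LIMD2, a LIM domain protein, was at 10.9 and 11.8 scaled RPM with mix 1 and at 85.2 and 87 scaled RPM with mix 2, against 19.1 and 19.9 scaled RPM with control siRNA (-2.82).

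A total of 8 genes moved at least 2-fold in opposite directions against control siRNA. The adhesion receptor GPR56 was at 134 and 140 scaled RPM with mix 1 and at 9.64 and 12 scaled RPM with mix 2, against 40.8 and 46.4 scaled RPM with control siRNA. The inositol transporter SLC5A3 was at 208 and 190 scaled RPM with mix 1 and at 20.8 and 20.5 scaled RPM with mix 2, against 62.6 and 62.5 scaled RPM with control siRNA. TMEM158, LIFR, CCDC50, TNC and ATP6V1A had the same direction, above control with mix 1 and below it with mix 2. PGM2L1 alone had the reverse, at 11.6 and 9.97 scaled RPM with mix 1 and at 76.6 and 72 scaled RPM with mix 2, against 23.4 and 24.2 scaled RPM with control siRNA.

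**Figure D4:**
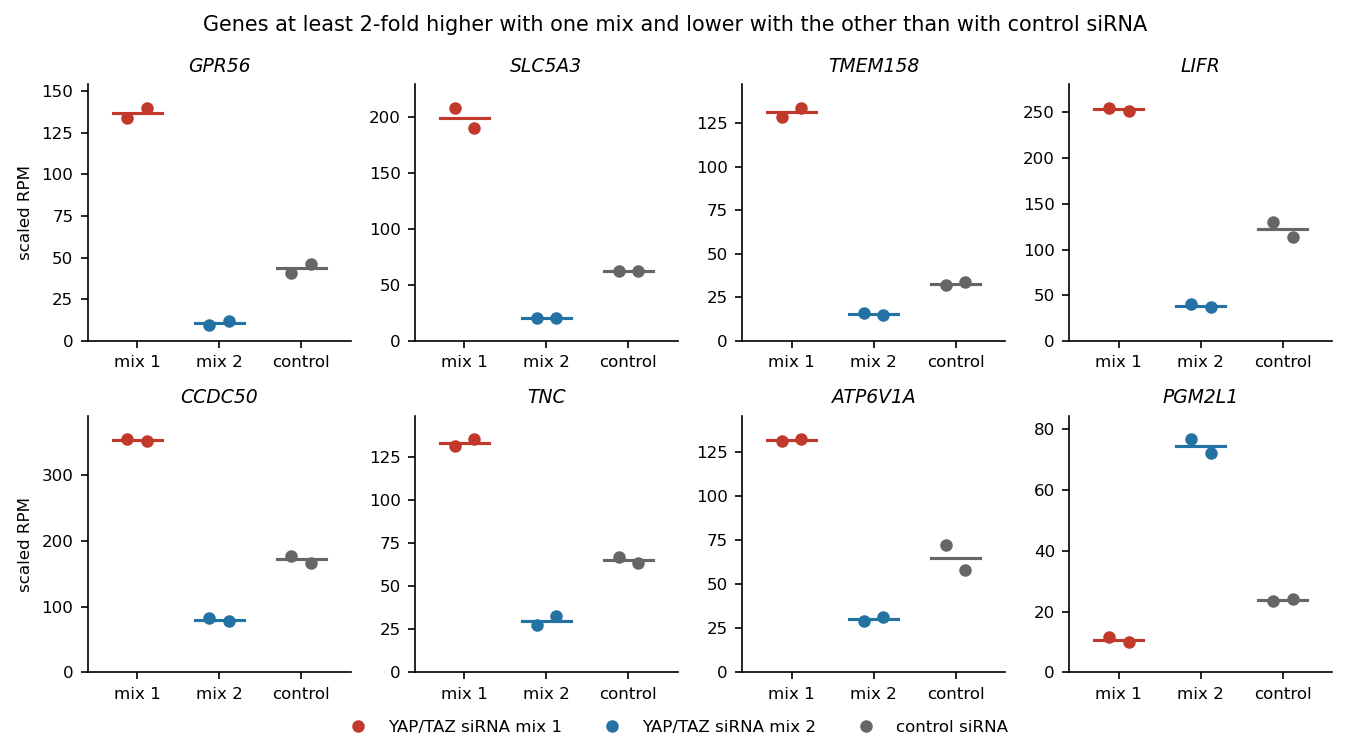
Level in scaled RPM of the 8 genes that were at least 2-fold higher with one mix and at least 2-fold lower with the other than with control siRNA, in each library (points) with the group mean (line). In 7 of the 8 the mix 1 libraries are highest and the mix 2 libraries lowest, and in PGM2L1 the order is reversed.

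Other genes with a mean of at least 5 scaled RPM in the higher group changed at least 2-fold with a single mix and were not called with the other, where the log2 change was under 0.2. Mix 1 alone lowered 41 and raised 32 such genes, and mix 2 alone lowered 109 and raised 54. UHMK1, a kinase that binds splicing factors, was at 412 and 411 scaled RPM with mix 1 and at 69.8 and 70 scaled RPM with mix 2, against 441 and 424 scaled RPM with control siRNA. CBFB, the partner subunit of the RUNX factors, was at 147 and 151 scaled RPM with mix 1 and at 23.6 and 25.5 scaled RPM with mix 2, against 162 and 146 scaled RPM with control siRNA. Both were low in the mix 2 libraries alone. With mix 1 alone, SESTD1 was low, at 3.92 and 3.75 scaled RPM with mix 1, 20.2 and 20.6 scaled RPM with mix 2 and 20.7 and 17.8 scaled RPM with control siRNA. The secreted hormone gene STC1 was high with mix 1 alone, at 97.3 and 88.8 scaled RPM with mix 1 and at 21.9 and 23 scaled RPM with mix 2, against 24.6 and 22.8 scaled RPM with control siRNA. ITGB3, an integrin subunit gene, was high with mix 2 alone, at 7.97 and 8.82 scaled RPM with mix 1 and at 34 and 35.4 scaled RPM with mix 2, against 7.99 and 8.97 scaled RPM with control siRNA.

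Short words in 3' UTRs were set against the changes with each mix. This description was added after the data were seen and carries no test. For this, 11935 tested genes with a 3' UTR in GENCODE 29 were used. Each of 11428 words of 7 bases was ranked by the mean change of its holders against that of the other genes. The ranking was corrected for 3' UTR length, while the means of holders, of other genes and by number of sites given below were not. The word with the lowest mean for mix 2 minus control siRNA was TACTTCT, and for mix 1 minus control siRNA it was GGAACTT. The word TACTTCT was also first for mix 1 minus mix 2, which uses the same mix 2 libraries, and GGAACTT had rank 3 there, behind GTCAACT and, at rank 2, AGTCAAC.

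Both words occur in the coding sequence of a targeted gene, TACTTCT in YAP1 and GGAACTT in WWTR1. The window at the first occurrence of each is shown for that reason (GENCODE 29, 5' to 3'). Capitals mark the word and, next to it, the reverse complement of another word of the top 5 for mix 1 minus mix 2. In YAP1 that word is CTGACCA, which had rank 5 there but rank 461 among the lowest for mix 2 minus control siRNA. In WWTR1 it is AGTCAAC, which had rank 2 in both mix 1 minus mix 2 and mix 1 minus control siRNA.
YAP1 coding window: ttcTGGTCAGagaTACTTCTtaaatcacat
WWTR1 coding window: aacGTTGACTtaGGAACTTtggaatctgaa
Of the ranked words, 10.1% occur in the YAP1 coding sequence and 7.63% in that of WWTR1, or 18.7% and 14.6% on either strand. No siRNA sequence was at hand, so no word was compared with one. In the 3' UTRs of the targeted genes, TACTTCT stands 1 time in YAP1 and 3 times in WWTR1, and GGAACTT in neither.

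TACTTCT was held by 1745 genes, 14.6% of those with a 3' UTR. Their mean log2 change was 0.25 for mix 1 minus mix 2, against -0.05 in the other genes, and -0.25 for mix 2 minus control siRNA, against 0.09 in the others. For mix 1 minus control siRNA the means were 0.01 and 0.05, and for BRD mix A minus mix B -0.03 and 0.01. With 0, 1, 2 and at least 3 sites, the mean of mix 1 minus mix 2 was -0.05, 0.22, 0.38 and 0.48. The word was held by 335 of 1360 genes at least 2-fold lower with mix 2 than with control siRNA (24.6%), by 151 of 1038 at least 2-fold lower with mix 1 (14.5%), and by 45 of 100 genes low with mix 2 alone. It was chosen for its low mean in mix 2 minus control siRNA. The shares among genes low with mix 2 and the trend with sites therefore follow in part from that choice. Genes with and without the word spread widely around these means, with an SD of 0.72 among genes with 1 site.

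The sites of several named genes are shown with their word in capitals, as genes low with mix 2.
CBFB 3' UTR site 1: ttttttttttgTACTTCTagatgttttggt
UHMK1 3' UTR site: accttcccagtTACTTCTttggggtattac
ULBP2 3' UTR site: ggaaaatcaagTACTTCTttgaatgatgat
TNC 3' UTR site 1: caatagtttttTACTTCTcttaggtggctc
Other genes went against this pattern. ARL6IP1, with the largest difference between the mixes, holds no TACTTCT in its 3' UTR. SLC16A6 and PI16, which rose with mix 2, hold 1 each. SESTD1 holds 3, yet it was low with mix 1 alone.

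GGAACTT was held by 1404 genes (11.8%). Their mean change was -0.12 for mix 1 minus control siRNA, against 0.06 in the other genes, and -0.07 for mix 1 minus mix 2, against 0.01. For mix 2 minus control siRNA the holders were lower too, at -0.05 against 0.06 in the other genes. With 1 and 2 sites, the mean of mix 1 minus control siRNA was -0.11 and -0.22, and the 16 genes with at least 3 sites averaged 0.00. These means are not corrected for length either. With the correction, holders differed from other genes by -0.2 for mix 1 minus control siRNA and by -0.17 for mix 1 minus mix 2. The word was held by 176 of 1038 genes at least 2-fold lower with mix 1 than with control siRNA, by 165 of 1360 at least 2-fold lower with mix 2 (12.1%), and by 12 of 38 genes low with mix 1 alone (31.6%). GGAACTT was chosen for its low mean in mix 1 minus control siRNA, so its shares among genes low with mix 1 follow in part from that choice. CTGF holds 1 such site, shown here because CTGF is the readout with the largest gap between the mixes, while CYR61, ANKRD1, AXL and AMOTL2 hold none.
CTGF 3' UTR site: ctcattagactGGAACTTgaactgattcac
C12orf75 3' UTR site: cacttgtttatGGAACTTtctgtggccacc

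**Figure D5:**
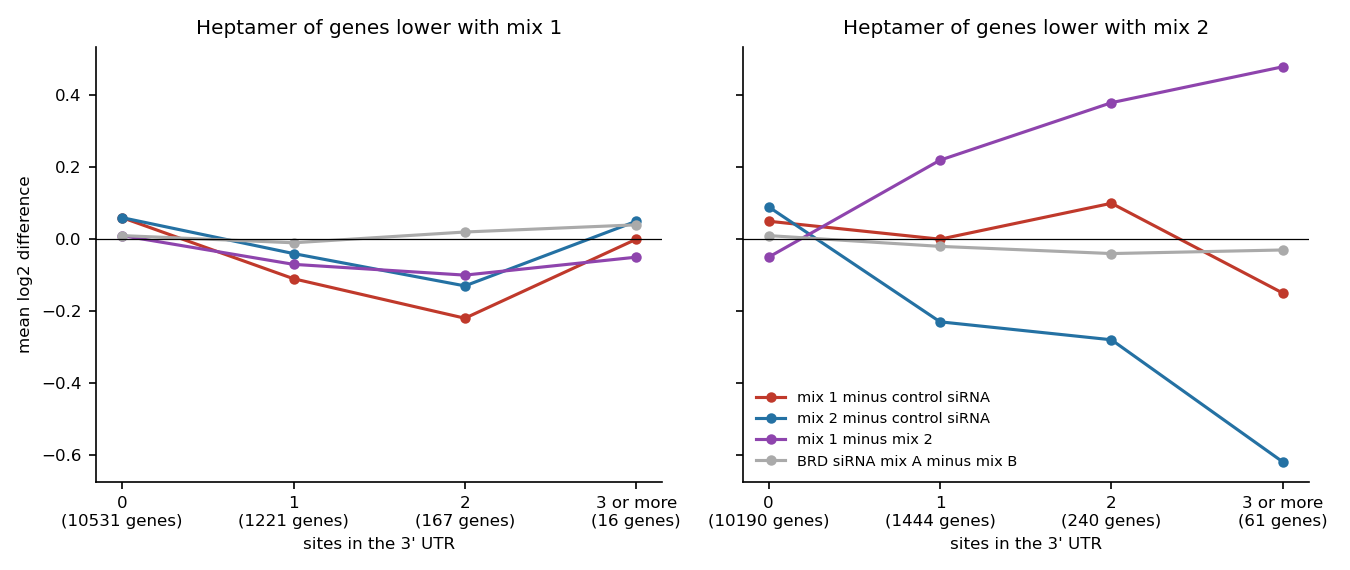
Mean log2 difference of genes by the number of sites of a word of 7 bases in the 3' UTR, for the word lowest with mix 1 (left) and lowest with mix 2 (right), with the number of genes in brackets. Means are not corrected for 3' UTR length, and each word was chosen by its mean in these same data. For the mix 2 word, mix 2 minus control siRNA falls with the number of sites, mix 1 minus mix 2 rises to 0.48, and BRD siRNA mix A minus mix B stays near 0.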

How the data were processed

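Total RNA was depleted of ribosomal RNA and made into stranded libraries, per the labels' protocols. Build hg19, R 3.0.0, edgeR, HTSeq 0.6.0, TopHat2 2.0.5 and CASAVA 1.8.4 stand in the submitters' processing notes without a role. No annotation, strand setting or filter is stated there. There were 13734 genes by symbol in the deposited table, 0 lines that name no gene and 0 columns of other samples. Its values, named CPM by the authors in the deposited file's name, are a scaled signal: column sums ran between 903627 and 1098052. A plan written for CPM was therefore applied to a signal. Each column steps in multiples of 1 read, which gave back whole reads for 100% of values (tolerance 0.01) and 15741695 to 37311326 reads per library. One read was worth 0.0276 to 0.0602, so low genes rest on few reads. The libraries of each group differed by more than sampling noise, the chi-square per gene being 3.44 to 10.55.

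Tests ran on log2(value + 1) of 13674 genes that reached 1 in 2 or more libraries. All 14 libraries entered 1 limma model of 7 groups, run with limma 3.58.1 in R 4.3.3 (7 residual and 13.2 prior degrees of freedom, median residual SD 0.0852). P-values were two-sided, with Benjamini-Hochberg adjustment over all tested genes. For a single gene, an exact permutation test of 2 against 2 libraries cannot go below 0.333 and was not used. On simulated data for mix 1 minus mix 2 (13180 genes), limma recovered 95.9% of 1.5-fold, 95.8% of 2-fold and 98.0% of 4-fold changes, and 5.1% of 198 calls were false. The simulation changed only a small share of genes, in mix 1 alone, and took its spread from these same libraries. In the data 65.7% of genes were called between the mixes, so the simulated false share does not carry over to those calls.

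Alternatives were quantile, upper-quartile and median-ratio scaling, pseudocounts of 0.25 and 4, a filter at 5 or none, the 6 libraries alone, a fit without variance trend, a replicate block, edgeR 4.0.16 and DESeq2 1.42.0 on recovered reads, and leaving out each of the 6 libraries. The members and the 33 gene lists were chosen with earlier results of these data known. Lists come from textbook knowledge and got counts and medians, with no set test. Named genes are the targets and 6 readouts, the 10 largest differences each way with a mean of at least 5 in the higher mix and no overlap of libraries, members of the YAP/TAZ, Hippo, cholesterol and NF-kB lists, up to 4 of every other list, and genes opposite or changed with a single mix; some of these genes are not reported here.

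The 3' UTR of a gene was taken from the GENCODE 29 basic transcript with the longest one (11933 genes matched by symbol and 2 by an older symbol). Words held by at least 500 genes and at most every second gene were ranked. For the ranking alone, each change was corrected for log10 length by a quadratic fit. GENCODE 29 is on GRCh38, not the authors' build, and was used for sequence only. The 2 words described were taken as the lowest against control siRNA, a rule set after the rankings were seen. Promoters are from RefSeq, GRCh38.p14.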

Additional observations from a re-analysis of the deposited data

Results flagged for a closer look

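For 8 genes the change against control siRNA had opposite signs with the mixes, at least 2-fold each. Mix 1 minus mix 2 is the difference of those 2 changes in the same limma fit, so its large size and its call follow from the choice of these genes. The log2 difference was 3.55 for GPR56, 3.21 for SLC5A3, 3.00 for TMEM158, 2.69 for LIFR, 2.13 for CCDC50, 2.12 for TNC and 2.09 for ATP6V1A, all higher with mix 1, and -2.68 for PGM2L1. Every one of them was called under each of the 18 alternatives. SLC5A3, TNC and CCDC50 hold 2 TACTTCT sites each in the 3' UTR, PGM2L1 holds 1 GGAACTT site, TMEM158, LIFR and ATP6V1A hold neither word, and GPR56 was not matched to a 3' UTR.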

How the results depend on the processing

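Of 259 named differences between the mixes, none changed direction under the 18 alternatives where it was called in the main fit or in the alternative. Sign changes of differences near 0 that were called in neither fit were not counted. The call of 20 of the 259 changed under at least 1 alternative. At least 2-fold counts moved most with the pseudocount: at 4 there were 307 genes lower with mix 1 than with mix 2 (573 at 1), and 704 higher than control siRNA with mix 1 and 1020 with mix 2. With edgeR the counts were 896 lower between the mixes and 1829 higher with mix 1 than control siRNA. Under quantile normalization, mix 2 minus control siRNA was 0.15 for CYP51A1 and 0.17 for TNIP1 (cholesterol and NF-kB list members near 0 and not called otherwise), and 0.00 and no longer called for CSF3; the cause was not tested.

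Leaving out 1 library at a time gave 7899 to 9170 calls between the mixes (3734 to 4310 higher, 4165 to 4860 lower; 2-fold 705 to 747 higher, 552 to 609 lower). For mix 1 minus control siRNA it gave 9290 to 10124 and for mix 2 minus control siRNA 10020 to 10667. On the recovered reads edgeR called 8947 genes between the mixes, 10019 with mix 1 and 10582 with mix 2, and DESeq2 8124, 9346 and 10071. With a replicate block, 8981 genes were called between the mixes, 10177 with mix 1 and 10718 with mix 2. The labels only number the replicates, and same-numbered libraries deviated together with r of 0.081 (mix 1 and mix 2), 0.254 (mix 1 and control) and -0.024 (mix 2 and control), so they were not treated as pairs; the block moved no count by over 1.5 times.

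Medians of the heat shock, p53, splicing, proteasome and fibroblast lists changed sign under some alternative and are not read as directions. Without the length correction, holders of TACTTCT minus other genes stayed between 0.26 and 0.32 over the alternatives for mix 1 minus mix 2, and of GGAACTT between -0.09 and -0.06. With words held by at least 200 genes, GGAACTT ranked 6 and TACTTCT 1 for mix 1 minus mix 2; at 1000 both ranked 1.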
